A study of Homo sapiens with 3 samples.

Results

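Glial cell line-derived neurotrophic factor (GDNF) signals through a receptor made of separately encoded parts, and the messenger RNAs of 8 genes of this system were followed in 3 breast cancer cell lines. The 8 genes were the co-receptor genes GFRA1, GFRA2 and GFRA3, the receptor tyrosine kinase gene RET, the cell adhesion molecule gene NCAM1 and the ligand genes GDNF, NRTN and ARTN. They were chosen by gene symbol from the 46427 genes counted. The choice was made with values of these libraries known, because GFRA1 had 0 counts in the parental line and was well counted in both drug-resistant lines. That pattern of GFRA1 is therefore given as a description.

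MM468, or MDA-MB-468, is an epithelial cell line from a triple-negative breast cancer (TNBC), a cancer that lacks estrogen and progesterone receptors and ERBB2 amplification. The parental line was labelled as wild type and not treated. Adriamycin-resistant MM468 cells were the cells that survived exposure to adriamycin (doxorubicin, an anthracycline that poisons topoisomerase II) at 10 to 140 nmol/L. Paclitaxel-resistant MM468 cells were the cells that survived exposure to paclitaxel (a taxane that stabilizes microtubules) at 2 to 320 nmol/L. Both resistant lines also carry the genotype label of wild type. The sources used here give neither the length of the exposures, nor the number of clones in each resistant line, nor whether drug was present when RNA was taken. RNA was sequenced from 1 library per line, so no difference has a replicate check, no SD can be given and no test between lines was possible.

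GDNF-family ligands are secreted dimers that bind a GFRα co-receptor, a protein held on the cell surface by a lipid anchor. The complex of ligand and GFRα then brings together RET molecules, which phosphorylate each other and recruit adaptors of the RAS-ERK and PI3K pathways. GDNF is the preferred ligand of GFRα1, the protein of GFRA1, neurturin (NRTN) that of GFRα2 and artemin (ARTN) that of GFRα3. NCAM, the protein of NCAM1, can act as an alternative partner of GFRα1 that signals through the kinase FYN without RET. The system is best known for the development of the kidney and the enteric nervous system, and GFRA1 and RET are also known as estrogen-responsive genes in breast cancer cells.

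The DNA before annotated starts of GFRA1 and RET is shown, because both genes had 0 counts in the parental library and counts in a resistant line. The stretches are 200 bases of the RefSeq promoter windows of GRCh38.p14, from 250 to 51 bases before a start, written 5′ to 3′ on the strand of the gene, with CG dinucleotides, the sites of DNA methylation, in capitals. GFRA1 lies on the minus strand of chromosome 10 (RefSeq GRCh38.p14, chr10:116056925-116274705) and has several starts. The outermost start of GFRA1, at chr10:116274705, is preceded by the stretch chr10:116274756-116274955 with 3 CG, which overlaps an exon of the non-coding RNA gene AC012470.1 on the other strand in GENCODE v29. A second start at chr10:116272475 is preceded by the stretch chr10:116272526-116272725 with 22 CG, which overlaps the opening exon of a non-coding GFRA1 transcript in the same annotation. RET lies on the plus strand of the same chromosome (chr10:43077069-43130351), and the stretch chr10:43076819-43077018 before its outermost start holds 25 CG. The stretch before RET overlaps no GENCODE exon.
GFRA1, outermost start: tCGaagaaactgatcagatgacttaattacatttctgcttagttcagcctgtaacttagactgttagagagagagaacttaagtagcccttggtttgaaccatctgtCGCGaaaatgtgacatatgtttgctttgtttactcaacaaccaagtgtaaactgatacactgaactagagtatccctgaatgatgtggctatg
GFRA1, second start: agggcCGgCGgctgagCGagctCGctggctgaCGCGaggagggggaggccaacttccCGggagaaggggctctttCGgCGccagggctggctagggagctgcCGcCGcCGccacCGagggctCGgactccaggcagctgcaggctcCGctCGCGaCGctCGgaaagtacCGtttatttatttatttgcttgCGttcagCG
RET: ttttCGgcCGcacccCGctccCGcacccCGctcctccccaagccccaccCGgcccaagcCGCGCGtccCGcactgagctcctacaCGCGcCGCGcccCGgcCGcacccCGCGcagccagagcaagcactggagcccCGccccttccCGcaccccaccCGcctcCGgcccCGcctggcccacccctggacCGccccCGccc
Over all 35116 windows of this length, the median number of CG was 8. Fewer CG than at the outermost GFRA1 start were found in 28.2% of windows, fewer than at the second GFRA1 start in 84.5% and fewer than at RET in 90.0%. TATAAA, searched on both strands, was in 7.63% of all windows and in none of these 3. GCGTG, searched on both strands, was in 26.3% of all windows, at 1 place in the RET stretch and in neither GFRA1 stretch shown. The stretches before the remaining 2 GFRA1 starts with a window, not shown, held 12 and 3 CG and each had 1 GCGTG. Promoter windows matched 6 of the 8 genes by symbol, and GFRA2 and NCAM1 had none. Counts per gene do not tell which start of GFRA1 was used, and DNA methylation was not measured.

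The libraries held 32704885 counts in parental cells, 47567927 in adriamycin-resistant cells and 43242628 in paclitaxel-resistant cells. A count of 0 allows a level of up to 3 counts, which is 0.0917 CPM (counts per 1000000 counts of the library) in parental, 0.0631 in adriamycin-resistant and 0.0694 in paclitaxel-resistant cells. The 6 breast epithelial markers (such as EPCAM and KRT8) each had 10 or more counts in every library and summed to 5061 to 6501 CPM, and the 3 basal markers summed to 1143 to 1408 CPM. Of the basal markers, KRT14 had 2347 counts in parental, 515 in adriamycin-resistant and 474 in paclitaxel-resistant cells. In the same order KRT5 had 23983, 37417 and 29704 counts and KRT17 had 19732, 16415 and 26060. EGFR, abundant in this line, had 166693 to 270028 counts, and the progesterone receptor gene PGR had at most 7. ERBB2 and the estrogen receptor gene ESR1 were counted in every library, with 2204 to 3597 and 152 to 335 counts. The markers of other cells summed to less than the epithelial and basal markers. Summed over each list, fibroblast markers reached 20.1 to 34.6 CPM, leukocyte markers 2.52 to 11.1 CPM and endothelial markers 0.902 to 1.20 CPM. The fibroblast sum came mostly from COL1A1, at 659 to 1629 counts. Fibroblast markers with 10 or more counts numbered 2 in parental, 2 in adriamycin-resistant and 4 in paclitaxel-resistant cells. Schwann cell or neural crest markers, of interest because such cells use GFRA1 and RET, summed to 0.486 to 0.778 CPM, with SOX10 and S100B at 0 in every library. Neuron markers summed to 29.4 to 44.1 CPM, mostly from TUBB3, which many cancer cells also express, at 942 to 1858 counts. The part of other cells in the results was not tested.

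GFRA1 had 0 counts in parental cells, 760 in adriamycin-resistant cells and 2049 in paclitaxel-resistant cells. Both resistant lines stood far above the parental library, and the paclitaxel-resistant line was the higher of them. In CPM the levels were 0, 16.0 (95% interval 14.9 to 17.2) and 47.4 (45.4 to 49.5). These intervals, and all others here, are exact and cover counting error only. Per length of transcript, in TPM, the length-scaled share of a gene in its library set to a total of 1000000, GFRA1 was at 3.61 in adriamycin-resistant cells and 12.3 in paclitaxel-resistant cells. Among genes with 10 or more counts, 31.7% had a lower TPM than GFRA1 in the adriamycin-resistant library and 50.1% in the paclitaxel-resistant library, where the median gene was at 12.2. GFRA1 was thus near the middle of the expressed genes of the paclitaxel-resistant line. Against 3 counts in the parental library, and with TMM normalization, it was at least 172-fold higher in adriamycin-resistant and at least 441-fold higher in paclitaxel-resistant cells. The exact intervals of these ratios, which include the counting error of both libraries, began at 140 and 359. These are descriptions of the values that led to the choice of the gene. In bulk RNA, fewer cells with GFRA1 and less GFRA1 RNA per cell cannot be told apart.

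RET, the kinase that GFRα1 works with, had 0 counts in parental cells, 0 in adriamycin-resistant cells and 19 in paclitaxel-resistant cells. Only the paclitaxel-resistant library had any count of it, at 0.439 CPM (0.265 to 0.686). Against 3 counts, RET was at least 4.09-fold higher than in parental and at least 5.88-fold higher than in adriamycin-resistant cells. These bounds leave out the counting error of the 19 counts, and the exact intervals of the same ratios began lower, at 3.02 and 4.33. On the TPM scale RET was at 0.184, with 2.32% of the expressed genes of that library lower, and the level of GFRA1 was 66.6 times that of RET. In the adriamycin-resistant line, which had 760 counts of GFRA1, RET was not detected at this depth, and the exact interval of its 0 counts reached 0.0775 CPM.

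NCAM1, whose protein is the alternative partner of GFRα1, ran the other way. It had 662 counts in parental cells, 31 in adriamycin-resistant cells and 174 in paclitaxel-resistant cells. The parental library was the highest and the adriamycin-resistant library the lowest. With TMM normalization NCAM1 was 31.4-fold lower in adriamycin-resistant cells (21.9 to 46.6) and 5.89-fold lower in paclitaxel-resistant cells (4.98 to 7.0) than in parental cells. In TPM it went from 7.69 in parental to 0.231 and 1.62 in the adriamycin- and paclitaxel-resistant lines. NCAM1 lies on the plus strand at chr11:112961420-113278436.

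The remaining co-receptor genes were low or not detected. GFRA2, the gene of the neurturin co-receptor, had 0 counts in all 3 libraries. GFRA3, the gene of the artemin co-receptor (minus strand, chr5:138252380-138274621), had 12 counts in parental, 21 in adriamycin-resistant and 6 in paclitaxel-resistant cells. At these counts the adriamycin-resistant and parental lines did not differ beyond counting error, with a ratio of 1.19 (0.559 to 2.65). GFRA3 was 3.10-fold lower in paclitaxel-resistant than in parental cells, with an interval from 1.08 to 10.1. Its TPM was 0.396, 0.469 and 0.142 in the parental, adriamycin-resistant and paclitaxel-resistant lines.

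Of the ligand genes, GDNF (minus strand, chr5:37812677-37840041) had 0 counts in all 3 libraries, so no RNA of the preferred ligand of GFRα1 was detectable at this depth. ARTN (plus strand, chr1:43933801-43937240) was the most abundant of the 8 genes per length in every library. It had 616 counts in parental, 254 in adriamycin-resistant and 640 in paclitaxel-resistant cells. The adriamycin-resistant library was the low one, 3.57-fold below parental (3.08 to 4.15), and the paclitaxel-resistant library was 1.49-fold below parental (1.33 to 1.67). The latter difference was smaller under some other processing. Its log2 fold change was -0.57 here, -0.35 with library size only and -0.26 with TPM and a pseudocount of 1. In TPM, ARTN was at 23.7, 6.60 and 19.7 in the parental, adriamycin-resistant and paclitaxel-resistant lines. Its level was 60.0, 14.1 and 139 times that of GFRA3, the gene of its own co-receptor, in the same order. These ratios are imprecise, since they rest on 12, 21 and 6 counts of GFRA3. NRTN (plus strand, chr19:5805067-5828324) had 19 counts in parental, 55 in adriamycin-resistant and 25 in paclitaxel-resistant cells. It was 1.97-fold higher in adriamycin-resistant than in parental cells (1.15 to 3.51), while the ratio of paclitaxel-resistant to parental cells was 0.850 (0.450 to 1.63).

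**Figure D1:**
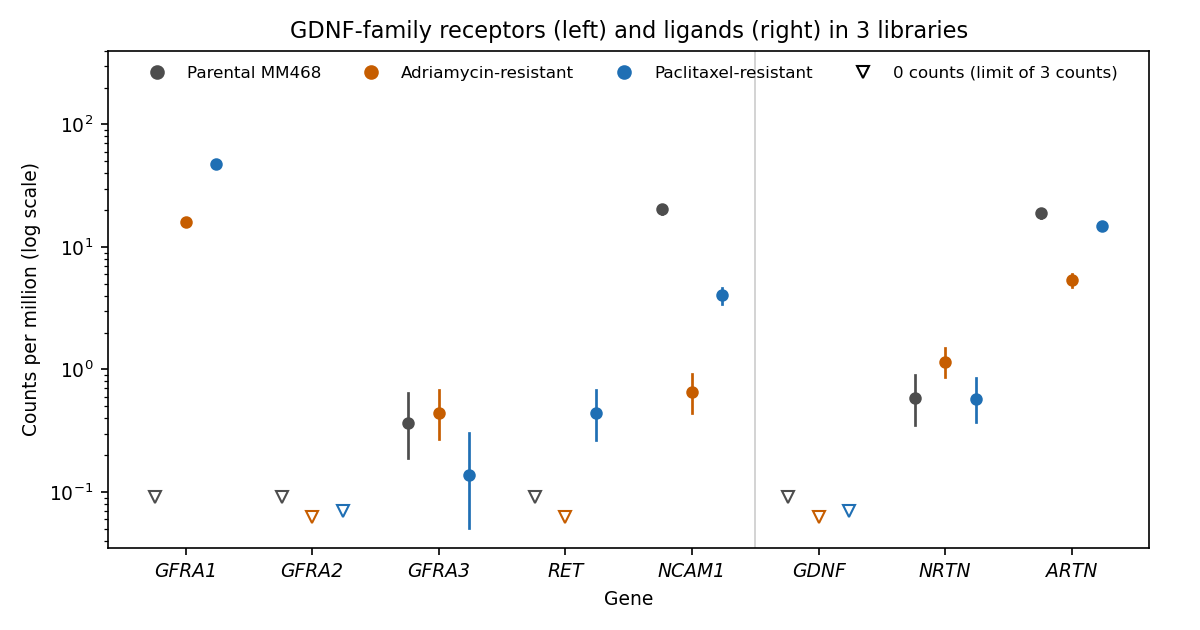
Levels of the 8 genes in CPM on a log scale in the parental (grey), adriamycin-resistant (orange) and paclitaxel-resistant (blue) libraries, 1 library per line. Bars are exact 95% intervals of counting error, and open triangles mark 0 counts at the limit of 3 counts. GFRA1 goes from 0 to 16.0 and 47.4 CPM while NCAM1 is highest in parental cells, and GFRA2 and GDNF have 0 counts throughout.

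The order of the levels per length therefore differed between lines. In parental cells the TPM order was ARTN, NCAM1, NRTN and GFRA3, and the other 4 genes had 0 counts. In adriamycin-resistant cells it was ARTN, GFRA1, NRTN, GFRA3 and NCAM1. The last of these, GFRA3 at 0.469 and NCAM1 at 0.231 TPM, rested on 21 and 31 counts. In paclitaxel-resistant cells the order was ARTN, GFRA1, NCAM1, NRTN, RET and GFRA3. RET and GFRA3, neighbours at 0.184 and 0.142 TPM, rested on 19 and 6 counts. The CPM of the 5 receptor genes summed to 20.6 in parental, 17.1 in adriamycin-resistant and 52.0 in paclitaxel-resistant cells, and that of the 3 ligand genes to 19.4, 6.50 and 15.4. The paclitaxel-resistant line had the highest receptor sum, of which GFRA1 made up 47.4 CPM, and the adriamycin-resistant line the lowest ligand sum. The parental receptor sum was nearly all NCAM1.

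The comparison of each resistant line with the parental line used genes with 10 or more counts in 1 of the 2 libraries. A gene was called when it differed at least 2-fold, after counts under 3 were raised to 3. Of the 8 genes, 5 passed the minimum in the adriamycin-resistant comparison. GFRA1 was called higher, beside 10.9% of the 17950 genes compared. NCAM1 and ARTN were called lower, beside 11.4% of these genes. GFRA3 and NRTN were under 2-fold. In the paclitaxel-resistant comparison 6 passed. GFRA1 and RET were called higher, beside 20.5% of 19099 genes, and GFRA3 and NCAM1 lower, beside 13.6%. NRTN and ARTN were under 2-fold. Both comparisons use the same parental library, and the choice of genes used values of both, so nothing is read from these shares. Over all genes compared, the median log2 fold change was 0.02 in the former and 0.07 in the latter.

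The resistant lines were also compared with each other, without the parental library. GFRA1 was 2.50-fold higher in paclitaxel-resistant than in adriamycin-resistant cells (2.30 to 2.72). NCAM1 was 5.21-fold higher (3.54 to 7.90) and ARTN 2.34-fold higher (2.02 to 2.71), and RET was the fourth gene called higher. GFRA3 was 3.77-fold lower (1.47 to 11.4) and NRTN 2.37-fold lower (1.45 to 3.97) in the paclitaxel-resistant line. All 6 genes that passed the minimum were called, 4 of them higher and 2 lower. Of all 19327 genes compared, 19.5% were called higher and 14% lower, with a median log2 fold change of 0.04. The choice of genes used values of both resistant libraries, and RET and GFRA3 passed the minimum through 1 library only. Nothing is therefore read from these shares. The genes higher in the paclitaxel-resistant line were thus GFRA1, NCAM1, ARTN and RET. Of these, NCAM1 was still 5.89-fold below parental in that line, and RET was called on 19 counts against 0. GFRA3, NRTN and RET had at most 21, 55 and 19 counts in any library.

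**Figure D2:**
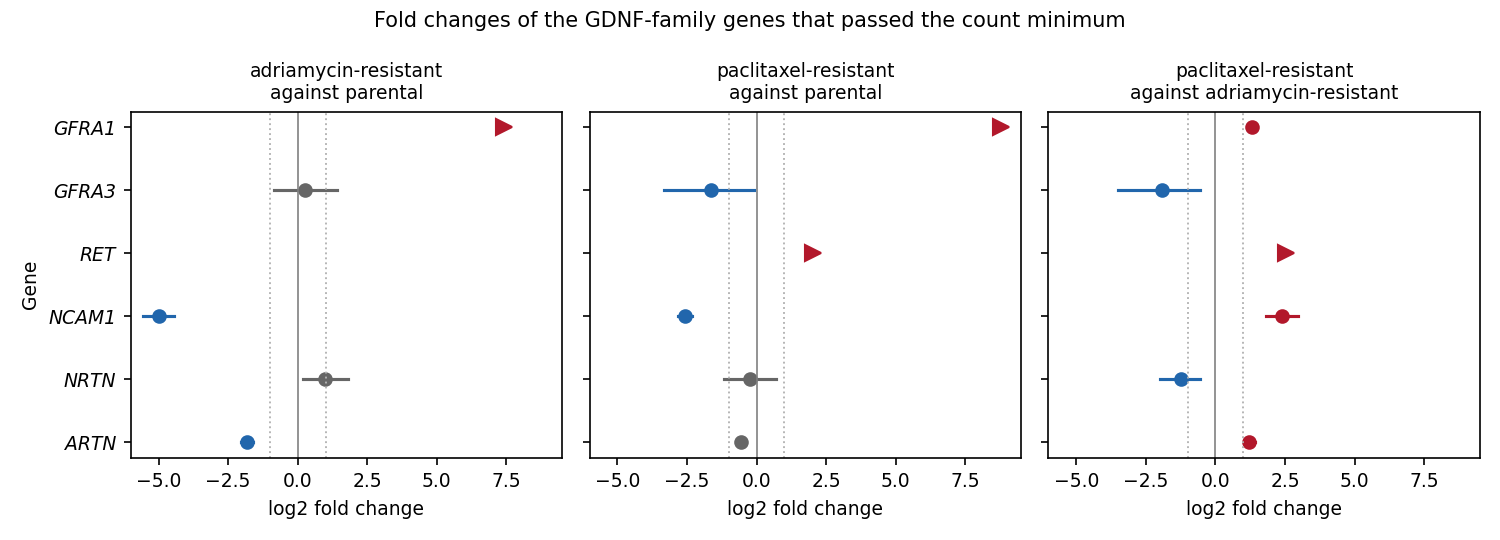
Log2 fold changes (x axis) of the 6 genes (y axis) that passed the count minimum in at least 1 of the 3 comparisons, 1 panel each. Points are TMM-normalized ratios with exact 95% intervals of counting error, triangles are lower bounds against 3 counts, dotted lines mark 2-fold, and red, blue and grey mark genes called higher, called lower and under 2-fold. GFRA1 is to the right in every panel, and NCAM1 is 31.4-fold and 5.89-fold lower than in parental cells and 5.21-fold higher in paclitaxel-resistant than in adriamycin-resistant cells.

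Genes of related function were taken from 7 lists with 119 genes in all, written with earlier results of these data known. Of these, 90 passed the minimum in the adriamycin-resistant comparison, with 13 called higher and 19 lower, and 94 in the paclitaxel-resistant comparison, with 17 higher and 18 lower. The medians of the log2 fold changes were -0.10 and -0.05, beside 0.02 and 0.07 for all genes. Beside these counts and those of each list below stand the shares of all genes compared. In adriamycin-resistant against parental cells 10.9% were called higher and 11.4% lower. The shares were 20.5% and 13.6% in paclitaxel-resistant against parental cells, and 19.5% and 14% between the resistant lines.

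The other genes of the GDNF family proper were not detected at this depth. GFRA4 and PSPN, the co-receptor and ligand of the persephin branch, had 0 counts in all 3 libraries, as had GFRAL, the receptor of the stress hormone GDF15 that also works through RET. GDF15 had 68 counts in parental, 410 in adriamycin-resistant and 66 in paclitaxel-resistant cells. The adriamycin-resistant library stood apart, 4.10-fold above parental (3.16 to 5.38), and the paclitaxel-resistant library was 6.70-fold below it. GAS1, which encodes a distant relative of the GFRα proteins, had 59, 47 and 83 counts in parental, adriamycin-resistant and paclitaxel-resistant cells.

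Other surface proteins that bind GDNF or handle its receptors made up a list of 13 genes. In adriamycin-resistant cells 12 passed, of which 1 was called higher and 4 lower, with a median of -0.74. In paclitaxel-resistant cells 13 passed, of which 2 were called higher and 2 lower, with a median of -0.12. CDH2, the gene of N-cadherin, had 0 counts in parental, 0 in adriamycin-resistant and 618 in paclitaxel-resistant cells, at least 133-fold above parental and at least 191-fold above adriamycin-resistant cells, with exact intervals from 108 and 155. Like RET with its 19 counts, CDH2 had counts in the paclitaxel-resistant library alone. So had the marker genes DCN and PGR, with 14 and 7 counts. The share of all genes with this pattern was not counted, so nothing is read from it. SORL1, the gene of a sorting receptor of GDNF and GFRα1, had 5459, 3828 and 2872 counts in parental, adriamycin-resistant and paclitaxel-resistant cells, 2.10-fold and 2.94-fold below parental. The gene of a related sorting receptor, SORCS2, was 2.04-fold and 2.86-fold above parental. SORT1, the gene of sortilin, was 2.92-fold and LRIG2 2.25-fold below parental in adriamycin-resistant cells. LRIG1, which encodes a restraint on RET and on EGFR, had 4021, 3051 and 2115 counts in the parental, adriamycin-resistant and paclitaxel-resistant libraries and was 2.94-fold below parental in the last.

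Among 29 genes of adaptors and effectors that active RET recruits, 27 passed in each comparison with parental. In adriamycin-resistant cells 1 was called higher and 4 lower (median -0.27), and in paclitaxel-resistant cells 1 higher and 5 lower (median 0.07). Most of the RET adaptor genes were thus under 2-fold in both, as were most of all genes compared, so nothing is read from this. SHC2, an SHC-family adaptor gene, had 4 counts in parental, 37 in adriamycin-resistant and 162 in paclitaxel-resistant cells, the last being 26.2-fold above parental (10.0 to 97.2). SHC3 had 216, 102 and 111 counts and was 3.12-fold and 3.01-fold below parental in the adriamycin-resistant and paclitaxel-resistant lines. PIK3R1, the gene of a regulatory subunit of PI3K, was 2.23-fold and 2.48-fold below parental. The insulin receptor substrates differed by line, with IRS2 2.55-fold below parental in adriamycin-resistant and IRS1 2.98-fold below parental in paclitaxel-resistant cells. Between the resistant lines, CBLB, which encodes a ubiquitin ligase, was 2.17-fold higher and GRB10 2.55-fold lower in paclitaxel-resistant cells.

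All 18 genes of ERK feedback and immediate targets passed the minimum. In adriamycin-resistant cells 2 were called higher and 5 lower (median 0.14), and in paclitaxel-resistant cells 2 higher and 7 lower (median -0.52). Between the resistant lines, 3 were higher and 5 lower in paclitaxel-resistant cells (median -0.42). Of all genes, 20.5% were higher and 13.6% lower in paclitaxel-resistant against parental cells, and 19.5% and 14% between the resistant lines. The Sprouty genes, whose proteins dampen signaling from receptor kinases to ERK, did not move together. SPRY2 had 1001 counts in parental, 3132 in adriamycin-resistant and 4598 in paclitaxel-resistant cells, 2.13-fold and 2.97-fold above parental. SPRY4 had 410, 1670 and 240 counts in the same order, 2.77-fold above parental in adriamycin-resistant cells and 7.50-fold lower in paclitaxel-resistant than in adriamycin-resistant cells. SPRY1 had 748, 1539 and 284 counts, and was 4.08-fold below parental in paclitaxel-resistant cells. SPRY2 alone of these was above parental by 2-fold in both lines.

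The target genes also differed by line. EGR1, an immediate early transcription factor gene, had 3380 counts in parental, 952 in adriamycin-resistant and 3069 in paclitaxel-resistant cells, and was 5.23-fold below parental in the adriamycin-resistant line. ETV1 and PHLDA1 were 3.35-fold and 3.14-fold below parental in that line. DUSP4, the gene of a phosphatase of ERK, had 2409, 4124 and 1077 counts, 3.46-fold below parental in paclitaxel-resistant cells. IER3 was 3.72-fold below and CCND1, the gene of cyclin D1, 2.04-fold above parental in the same line.

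Of 16 NCAM relatives and partners, 9 passed in each comparison. In adriamycin-resistant cells 3 were called higher and 0 lower (median 0.17), and in paclitaxel-resistant cells 4 higher and 1 lower (median 0.25). NFASC, an adhesion gene of the L1 family, had 81 counts in parental, 1580 in adriamycin-resistant and 270 in paclitaxel-resistant cells, 13.3-fold (10.6 to 16.8) and 2.15-fold above parental. NRCAM of the same family had 3, 16 and 331 counts, 71.3-fold above parental in paclitaxel-resistant cells with an interval from 24.2 to 347. FYN, the gene of the kinase through which NCAM and GFRα1 signal, had 210, 1447 and 712 counts and was 4.68-fold and 2.19-fold above parental. FYN was thus higher in both lines in which NCAM1 was lower. L1CAM had 1281, 1589 and 4037 counts and was 2.36-fold higher in paclitaxel-resistant than in adriamycin-resistant cells. PRNP, the prion protein gene, was 2.57-fold below parental in paclitaxel-resistant cells.

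Of 17 genes of factors known to act on RET or GFRA1 transcription, 10 passed in each comparison with parental. The call was higher for 1 and lower for 3 in adriamycin-resistant cells (median -0.07), and higher for 1 and lower for 2 in paclitaxel-resistant cells (median -0.15). GATA2 had 40 counts in parental, 234 in adriamycin-resistant and 498 in paclitaxel-resistant cells, 3.97-fold and 8.05-fold (5.82 to 11.4) above parental. FOXA1, a pioneer factor of luminal breast cells, had 1044, 653 and 747 counts and was 2.35-fold and 2.16-fold below parental. ESR1, the estrogen receptor gene, had 152, 335 and 161 counts and was 2.24-fold lower in paclitaxel-resistant than in adriamycin-resistant cells. ESR1 was highest in the adriamycin-resistant library, while GATA2 had the same order of libraries as GFRA1. Genes of other lists, such as SPRY2, SHC2 and MET, also had this order. The share of all genes with it was not counted, so nothing is read from it. Whether ESR1, GATA2 or another of these factors acted on GFRA1 or RET in these lines was not tested. SOX10 and PAX3, neural crest factors, had 0 counts in all 3 libraries.

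Other neurotrophic receptors and ligands made up a list of 21 genes. In adriamycin-resistant cells 12 passed, with 4 called higher and 3 lower (median 0.19), and in paclitaxel-resistant cells 15 passed, with 7 higher and 1 lower (median 0.74). Between the resistant lines 14 passed, with 8 higher and 1 lower in paclitaxel-resistant cells (median 1.37). Over all genes of that comparison, 19.5% were higher and 14% lower. BDNF, the gene of brain-derived neurotrophic factor, had 35 counts in parental, 327 in adriamycin-resistant and 882 in paclitaxel-resistant cells, 6.35-fold (4.47 to 9.27) and 16.3-fold (11.6 to 23.5) above parental. NTF4, the gene of another ligand of the same receptor, had 17, 149 and 588 counts, 5.95-fold and 22.4-fold (13.8 to 38.6) above parental. BDNF and NTF4 had the same order of libraries as GFRA1, as had MET and genes of other lists, so nothing is read from this order. Their receptor gene NTRK2, named here after its values were seen, had 54, 6 and 48 counts in parental, adriamycin-resistant and paclitaxel-resistant cells. MET had 11201, 17075 and 48804 counts and was 2.82-fold above parental in paclitaxel-resistant cells. ROS1 had 70, 543 and 118 counts, 5.27-fold above parental in adriamycin-resistant cells.

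**Figure D3:**
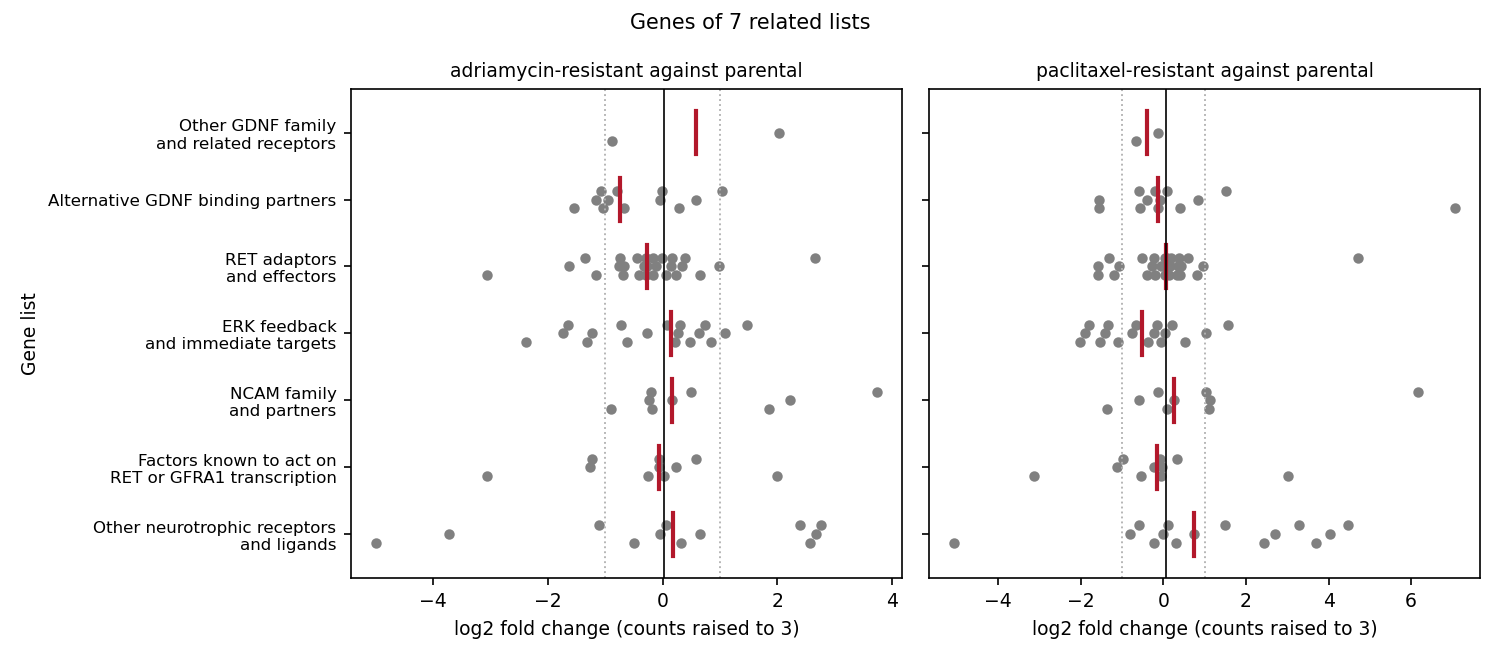
Log2 fold changes (x axis, counts under 3 raised to 3) of the genes of the 7 lists (y axis) that passed the count minimum, in adriamycin-resistant (left) and paclitaxel-resistant (right) against parental cells. Grey points are genes, with small vertical offsets for legibility, red bars are list medians, the black line is the median of all genes (0.02 and 0.07) and dotted lines mark 2-fold. List medians lie between -0.74 and 0.57 on the left and between -0.52 and 0.74 on the right.

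The genes beside GFRA1, RET and NCAM1 on their chromosomes were examined next, taking the 5 nearest genes of the table on each side. Of the 10 neighbours of GFRA1, 7 had 0 counts in all 3 libraries and 2 had 10 or more counts in any. ATRNL1, the nearest protein-coding neighbour on one side at 107.9 kb, had 107 counts in parental, 287 in adriamycin-resistant and 243 in paclitaxel-resistant cells. Its ratios to parental were 1.82 (1.45 to 2.30) and 1.47 (1.16 to 1.86), under 2-fold. CCDC172, the nearest on the other side at 49.7 kb, had 0 counts in each library, and PNLIPRP3 beyond it had 0, 37 and 2 counts. LOC107984273, a long non-coding RNA gene that overlaps the start of GFRA1, had 0, 0 and 5 counts. The strand setting of the counting is not given in the sources used here, so reads of overlapping genes may not have been told apart.

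Around RET, the nearest protein-coding gene CSGALNACT2, 8.09 kb away, had 1081 counts in parental, 1875 in adriamycin-resistant and 943 in paclitaxel-resistant cells. In the paclitaxel-resistant line, where RET had its 19 counts, the ratio of CSGALNACT2 to parental was 0.564. RASGEF1A on the same side had 8, 28 and 16 counts. Around NCAM1, TTC12 at 36.1 kb had 439, 988 and 758 counts, with ratios to parental of 1.53 and 1.12. DRD2 further on had 37, 17 and 35 counts, and ANKK1 between them had 0, 18 and 27.

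GFRA1 was one of 300 genes, 152 of them protein-coding, with 0 parental counts and 10 or more counts in each resistant line. By CPM it ranked 5 of the 152 in both lines. Likeness to GFRA1 was measured as the distance of log2 CPM over the 2 resistant libraries, a description over 2 points. The nearest gene was ZC3H12C, which encodes an RNA-binding protein with a zinc finger, with 639 counts in adriamycin-resistant and 2433 in paclitaxel-resistant cells (distance 0.35). BTNL9, of the butyrophilin-like family, followed with 1278 and 1985 counts (0.75). FLRT3, the gene of a fibronectin leucine-rich transmembrane protein, had 386 and 1308 counts (1.17). PLEKHA5 had 361 and 839 counts (1.68), and KCTD12 had 1648 and 499 (2.32), the only gene of these 5 that was lower in the paclitaxel-resistant line. Of the 152 genes, 55 were at least 2-fold higher in paclitaxel-resistant than in adriamycin-resistant cells, as GFRA1 was, and 27 were at least 2-fold lower. Over all genes of that comparison, 19.5% were called higher and 14% lower.

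**Figure D4:**
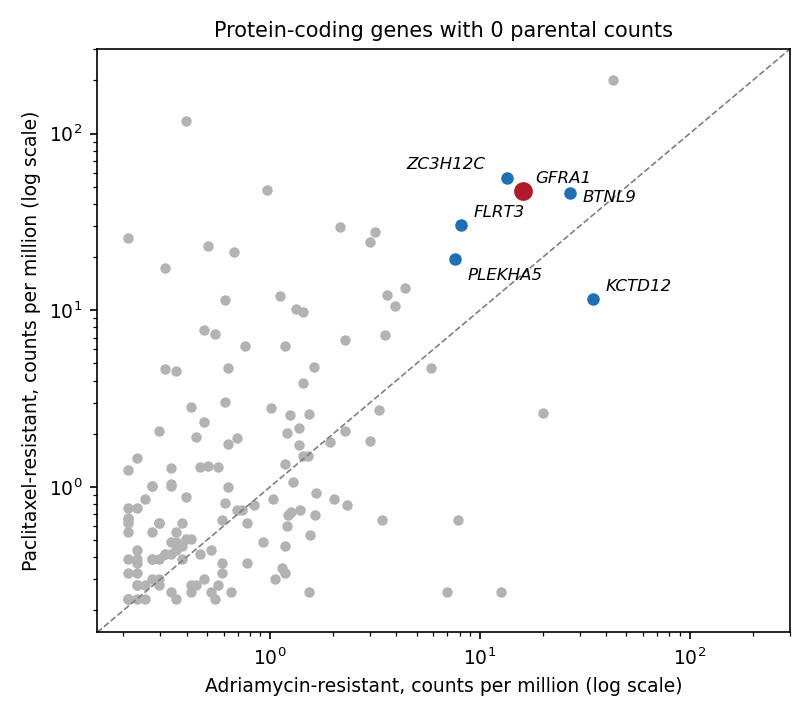
Levels of the 152 protein-coding genes with 0 parental counts and 10 or more counts in both resistant lines, in CPM in adriamycin-resistant (x axis) and paclitaxel-resistant cells (y axis), both on log scales. Each point is a gene, GFRA1 is red, the 5 genes nearest to it are blue, and the dashed line marks equal CPM. GFRA1 sits at 16.0 and 47.4 CPM above the line, and of its 5 nearest genes KCTD12 lies below it.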

How the data were processed

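RNA of 3 cultured lines was sequenced by a contract laboratory (Macrogen Japan Corp.) from libraries made with the TruSeq Stranded mRNA kit. The submitters' processing notes name Trimmomatic 0.39, HISAT2 2.2.1, StringTie 2.2.1 and GRCh38. The annotation release and the strand setting of the counting are not given in the sources used here. Read counts deposited by the authors are whole numbers for 46427 genes and were not normalized. Columns of FPKM and TPM, which the authors had computed, stand beside them.

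Samples were assigned to lines by their labels. Counts were normalized with TMM in edgeR 4.0.16 (R 4.3.3) on the 2 libraries compared, for genes with 10 or more counts in 1 of them. No quasi-likelihood test was run, since 1 library per line leaves no residual degrees of freedom. Counts under 3 were raised to 3, and a difference of at least 2-fold was called. Intervals (95%) are exact Poisson intervals for CPM and exact binomial (Clopper-Pearson) intervals for ratios. They cover counting error only, not variation between libraries, and they treat reads as independent. Reads without molecular identifiers are not independent molecules, so the intervals may be too narrow. Levels of different genes were compared in the deposited TPM.

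The 8 genes and the lists were chosen with earlier results of these data known. From each list, genes at least 2-fold changed with 100 or more counts were named, at most the 3 highest and 3 lowest per comparison. The genes most like GFRA1 were the 5 protein-coding genes at the smallest distance. Neighbouring genes and promoter windows came from RefSeq (GRCh38.p14), in which 44694 genes of the table were found, and strands from GENCODE v29. The steps were tested on simulated data. Alternatives were library size only, DESeq2 1.42.0 size factors, TMM over all 3 libraries, other count minimums, fitted fold changes with prior counts, a 4-fold threshold, and the deposited TPM or FPKM with a pseudocount.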

Additional observations from a re-analysis of the deposited data

How the results depend on the processing

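No paired analysis was possible because each line has a single library, and for the same reason no library could be left out. Counts of the 8 genes called moved as follows. In adriamycin-resistant against parental cells, 2 were higher with no count minimum (1 in the report) and 1 lower at a 4-fold threshold (2 in the report). In paclitaxel-resistant against parental cells, where 2 were higher and 2 lower, 1 was higher and 1 lower with a minimum of 100 counts, with TPM and a pseudocount of 1 and with FPKM and a pseudocount of 1, and 1 was lower at 4-fold. Between the resistant lines, where 4 were higher and 2 lower, 1 was lower with library size only and with TPM and a pseudocount of 0.1, 0 were lower with a minimum of 100 counts and with TPM and a pseudocount of 1, and 2 were higher and 0 lower at 4-fold and with FPKM and a pseudocount of 1. In the pathway lists at 4-fold, 8 were higher and 5 lower in adriamycin-resistant and 10 higher and 3 lower in paclitaxel-resistant against parental cells, and 7 higher and 6 lower between the resistant lines. The cause of these moves was not tested, apart from the minimum of 100 counts and the 4-fold threshold, which remove calls by construction. Of 136 fold changes of single genes under alternatives, 102 stayed within the counting interval and 34 left it in the same direction. The sign turned in 3, all of NRTN in paclitaxel-resistant against parental cells and within the interval (0.06, 0.10 and 0.01 on the log2 scale with TPM or FPKM). The log2 fold change of GFRA1 was 1.36 to 12.3 and 2.54 to 13.7 against parental, where its size depends on the prior count or pseudocount, and 1.18 to 1.74 between the resistant lines. Library size only moved the all-gene median of log2 fold changes from 0.07 to 0.30 in paclitaxel-resistant against parental cells, and the share of higher among called genes from 60.2% to 71.2%. Between the resistant lines it moved them from 0.04 to 0.28 and from 58.2% to 71.5%. Over the alternatives, all genes called higher and lower numbered 460 to 2148 and 663 to 2518 in adriamycin-resistant against parental cells, 1374 to 4867 and 876 to 3076 in paclitaxel-resistant against parental cells, and 1334 to 5192 and 781 to 3021 between the resistant lines. A filter on genes with a count in all 3 libraries leaves out GFRA1 and RET, so it gave no value for them. Depth limits what can be said of GFRA2 and GDNF, with 0 counts in every library, and of GFRA3, RET and NRTN, with at most 21, 19 and 55.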

Other observations

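Genes with 0 counts in 1 library and 100 or more in both others, as GFRA1 had, were counted for each library. There were 30 with 0 in parental, 6 with 0 in adriamycin-resistant and 5 with 0 in paclitaxel-resistant cells. The parental library was also the shallowest, with 32704885 counts, and the part of depth in this difference was not tested.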
